A study of Mus musculus with 12 samples.

Results

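The nucleoside diphosphate kinases are described here through 6 mouse genes, Nme1, Nme2, Nme3, Nme4, Nme6 and Nme7, with Nme4 at their centre. The 6 genes were taken by name from 55416 gene IDs, of which 17702 had enough reads to be tested, all 6 members among them. The choice rested on measured values, because Nme4 was chosen by its response to Lsg1 siRNA in these same libraries, its log2 fold in ER-ribosome-bound RNA and the excess of that fold over the one in whole-cell RNA. Its siRNA values, the difference between its siRNA responses in both fractions, and its distribution between the fractions of either kind of cell, from which that difference is made, are therefore given as descriptions without a test. The annotation names 9 Nme genes, and the other 3, Nme5, Nme8 and Nme9, had at most 15, 3 and 2 reads in any library.

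Nucleoside diphosphate kinases keep the cell's nucleoside triphosphates in balance by moving the terminal phosphate of one, usually ATP, to a nucleoside diphosphate, through a phosphate held briefly on a histidine of the enzyme. The proteins of Nme1 and Nme2 (NDPK-A and NDPK-B) are the main cytosolic forms, which assemble into mixed hexamers. The protein of Nme4 (NDPK-D) carries a mitochondrial targeting sequence, sits at the inner membrane and in mammalian cells binds cardiolipin. The protein of Nme3 is found at the mitochondrial outer membrane, that of Nme6 is also mitochondrial, and that of Nme7 belongs to the gamma-tubulin ring complex at centrosomes.

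The libraries came from E14Tg2a.4 mouse embryonic stem cells whose ribosomal protein Rpl31 carries a FLAG-TEV-AviTag, so that ribosomes near the endoplasmic reticulum (ER) could be biotinylated in place by ALIBi, purified, and their polyadenylated RNA sequenced. Whole-cell RNA was taken from the same lysates before the purification. There were 4 groups of 3 biological replicates: ER-ribosome-bound RNA after Lsg1 siRNA, ER-ribosome-bound RNA after scramble siRNA, whole-cell RNA after Lsg1 siRNA, and whole-cell RNA after scramble siRNA. Lsg1 is a GTPase that releases the export adaptor Nmd3 from the large ribosomal subunit in the cytoplasm. All groups carried the tag and the ER-directed labelling, all came from a single line, and the siRNA's dose and timing are not described here.

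Reads in genes ranged from 38092178 to 56522114 per library, and levels are in CPM, counts scaled to a common library total with TMM factors, so each is relative to the library's other RNAs. In bulk RNA, fewer cells with a transcript and less of it per cell cannot be told apart. The summed level of 8 embryonic stem cell markers was 5949 to 7909 CPM, while 7 fibroblast or feeder markers summed to 24.9 to 55.7 CPM and 6 primitive endoderm markers to 10.4 to 12.1 CPM. The stem cell sum was higher in every ER-bound library (7369 to 7909 CPM) than in any whole-cell library (5949 to 6157 CPM). In scramble cells 2 of its 8 markers, Esrrb and Tfcp2l1, went the other way. The fibroblast sum was likewise higher in every ER-bound library (45.4 to 55.7 CPM) than in any whole-cell library (24.9 to 27.9 CPM), and its part in the fraction differences was not tested. Most of that sum was Thy1, at 41.7 CPM in ER-bound and 21.0 CPM in whole-cell RNA of scramble cells. Col1a1 went the same way in these cells (6.25 and 4.45 CPM), while Col1a2 (0.701 and 0.816 CPM) and Col3a1 (0.158 and 0.215 CPM) went the other way. In Lsg1 siRNA cells Col3a1 was instead higher in ER-bound than in whole-cell RNA (0.275 and 0.178 CPM). Lum was at 0 in every library, and Dcn and Postn were near 0. Replicate 3 of the ER-bound scramble group and replicate 3 of the whole-cell Lsg1 group had the most reads outside any annotated feature in their fractions, 5.11% and 5.26%, against at most 3.10% in the other ER-bound and 4.40% in the other whole-cell libraries. Lsg1 itself was at 35.3, 42.5 and 52.5 CPM in ER-bound RNA after Lsg1 siRNA, against 142, 149 and 151 CPM after scramble siRNA, and at 83.5, 96.6 and 114 CPM in whole-cell RNA after Lsg1 siRNA, against 136, 144 and 148 CPM after scramble siRNA. The knockdown was thus visible in each library, with a log2 fold of -1.77 ± 0.11 (SE) in ER-bound and -0.55 ± 0.10 in whole-cell RNA. Over all tested genes Lsg1 was called in ER-bound RNA (edgeR adjusted p = 6.3e-08) but not in whole-cell RNA (edgeR adjusted p = 0.245).

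The members can be recognised by the coding sequence around a histidine located by a sequence pattern of the family's catalytic site. It is shown because the pattern was found in every member, while the bases around it differ between them. Whether each of these histidines takes up phosphate was not tested. Each line gives 30 coding bases, 5′ to 3′, from a GENCODE transcript on GRCm38, with the histidine codon in capitals.
Nme1, codon 118: aggaacatcattCATggcagcgattctgta
Nme2, codon 118: aggaacatcattCATggcagtgattcagtg
Nme3, codon 135: aagaatgtaattCATggcagcgactcggtg
Nme4, codon 150: aggaacgtcatcCATgctagcgattctgtg
Nme6, codon 129: cgaaatactaccCATggctcagactccgtg
Nme7, codon 225: agaaatgcagctCACggccctgatactttt
Nme7, codon 374: caaaatgctgttCATtgcacggatctgccg
Nme7 has 2 lines because the pattern was found at 2 sites of its coding sequence.

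These sequences bear on how far the genes' reads can be separated. Nme1 and Nme2 were the closest pair, with 80% of 459 aligned coding bases identical and a longest identical run of 29 bases. The other pairs of single-domain members, including all with Nme4, had 63.7% to 71.7% identity. No stretch of 150 bases of one member's transcript occurred in another member's, and none of Nme4, Nme6 or Nme7 occurred in any other gene's.

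Overlapping genes, in contrast, limit what the counts of 3 members hold. Nme1 (chr11:93956979-93968521, minus strand, GRCm38) and Nme2 (chr11:93949814-93956259, minus strand) are neighbours, and the readthrough gene Gm20390 covers 12.5% of the exonic bases of Nme1 and 48.9% of those of Nme2. Gm20390 itself received 6 to 16 reads per library. Nme3 (chr17:24896500-24897522, plus strand) shares 87.1% of its exonic bases with Mrps34, a mitochondrial ribosomal protein gene on the same strand, and 65.9% with Mapk8ip3 on the opposite strand. Of the 715 bases of its transcript only 20 lay outside other genes of its strand, and its 14 to 38 reads per library are uncertain as a measure of its level. Nme4 (chr17:26091734-26095602, minus strand) and Nme6 (chr9:109832749-109843116, plus strand) overlap no other gene's exons. Nme7 (chr1:164304121-164437725, plus strand) shares exonic bases with genes of the opposite strand, Atp1b1 over 9.79% and Blzf1 over 3.22% of its exonic bases. How the counting treated strand is not given, so reads of Nme7 and of these neighbours may not be fully separated.

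Nme4 stood at 99.8, 95.0 and 98.2 CPM in ER-bound RNA after Lsg1 siRNA, against 58.2, 50.4 and 52.9 CPM in ER-bound RNA after scramble siRNA. It stood at 60.2, 60.9 and 62.8 CPM in whole-cell RNA after Lsg1 siRNA, against 50.4, 51.5 and 50.9 CPM in whole-cell RNA after scramble siRNA. In both fractions every Lsg1 siRNA library was above every scramble library, and the 3 ER-bound knockdown libraries were far above the other 9. The means were 97.7 ± 2.41 CPM in ER-bound RNA after Lsg1 siRNA and 53.8 ± 3.97 CPM after scramble siRNA (SD, n = 3 each), a log2 fold of 0.86 ± 0.04 (SE). In whole-cell RNA the means were 61.3 ± 1.35 CPM after Lsg1 siRNA and 50.9 ± 0.518 CPM after scramble siRNA (SD, n = 3 each), a log2 fold of 0.27 ± 0.04 (SE). The ER-bound fold exceeded the whole-cell fold by 0.59 ± 0.06 on the log2 scale. With replicates matched by number, the ER-bound level was 1.71, 1.89 and 1.86 times that of scramble cells, and the whole-cell level 1.19, 1.18 and 1.23 times.

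**Figure D1:**
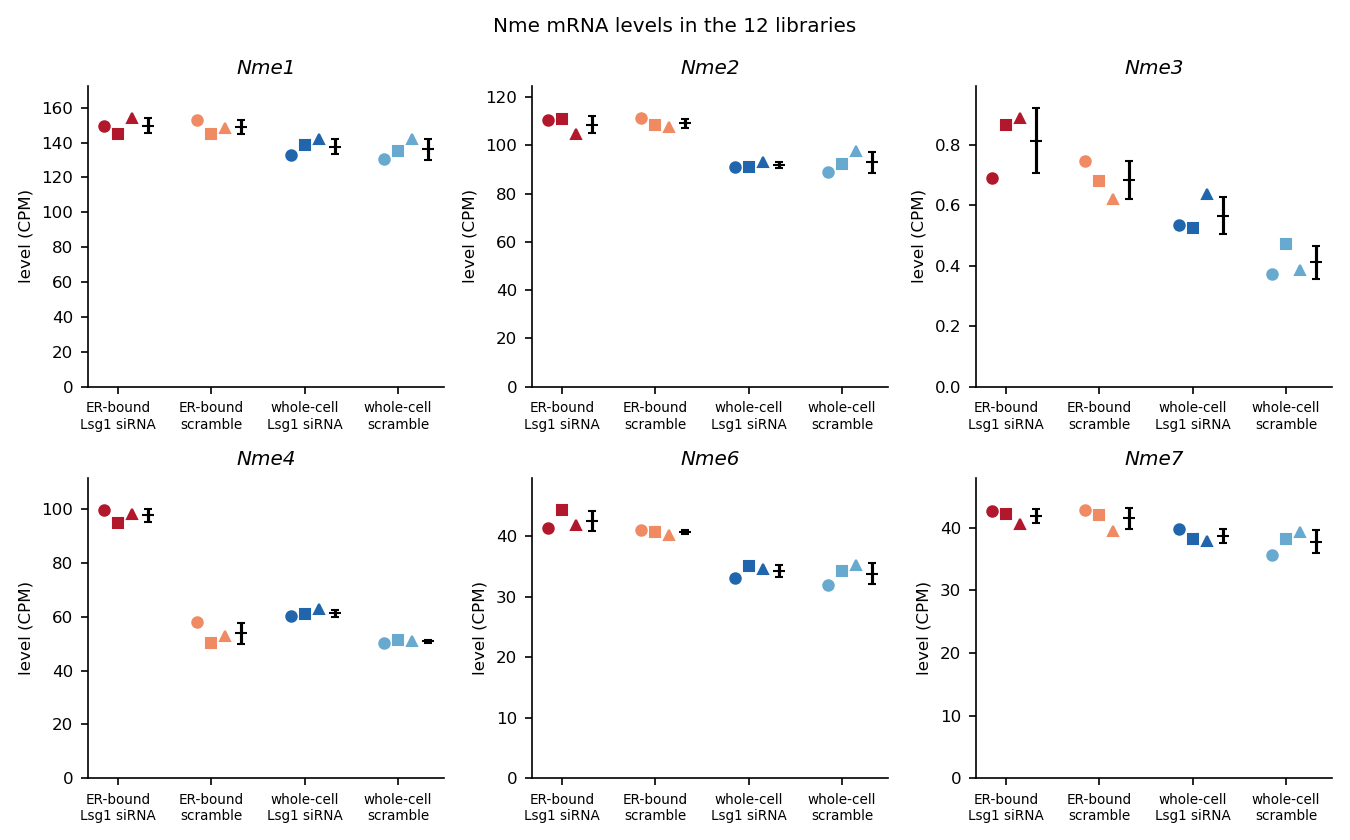
Level of each Nme gene in CPM (y axes from 0) in the 4 groups on the x axis. Circles, squares and triangles are replicates 1, 2 and 3, and the black bar is the mean ± SD of 3. Nme4 in the ER-bound Lsg1 siRNA libraries, at 95.0 to 99.8 CPM, lies above its other 9 libraries, while the groups of Nme1, Nme2 and Nme7 overlap between siRNAs within each fraction.

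These values are the ones Nme4 was chosen for, and its place among other genes is given only to show what the choice selected. Among 10645 genes averaging 5 CPM or more, 0 had a larger log2 fold than Nme4 in ER-bound RNA, 0 a larger difference between the fractions, and 17 a larger fold in whole-cell RNA. Among all 17702 tested genes, which include genes of few reads, 67 had a larger ER-bound fold. Also among all tested genes, 449 had a larger difference between the fractions and 1100 a larger whole-cell fold. Of these 17702 genes, 4.01% were called changed in ER-bound RNA (edgeR's quasi-likelihood test, Benjamini-Hochberg adjusted p under 0.05). A replicate block, which matches libraries by number, raised the number called to 1463, against 710 without it.

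Nme1 and Nme2, the cytosolic kinases and the most abundant members by counts, showed no called siRNA difference. Nme1 was at 150, 145 and 154 CPM in ER-bound RNA after Lsg1 siRNA, against 153, 145 and 148 CPM after scramble siRNA, so the groups overlapped. Its log2 fold was 0.01 ± 0.04 (SE; edgeR adjusted p = 0.947). Nme2 was at 110, 111 and 104 CPM after Lsg1 siRNA, against 111, 108 and 107 CPM after scramble siRNA, and again the groups overlapped. Its log2 fold was -0.01 ± 0.04 (edgeR adjusted p = 0.963). In whole-cell RNA the folds were 0.02 ± 0.04 for Nme1 and -0.02 ± 0.04 for Nme2, with an edgeR adjusted p of 1.00 for each.

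Nme6, which like Nme4 encodes a mitochondrial protein, was at 41.3, 44.4 and 41.8 CPM in ER-bound RNA after Lsg1 siRNA, against 41.1, 40.7 and 40.3 CPM after scramble siRNA. The groups were separate by a small margin, and the log2 fold of 0.06 ± 0.04 was not called (edgeR adjusted p = 0.489). Nme7, the centrosomal member, was at 42.7, 42.2 and 40.6 CPM after Lsg1 siRNA, against 42.8, 42.0 and 39.5 CPM after scramble siRNA, overlapping groups with a log2 fold of 0.01 ± 0.04 (edgeR adjusted p = 0.925). Nme3 had 34, 36 and 38 reads after Lsg1 siRNA, against 37, 34 and 29 reads after scramble siRNA. These counts overlapped, and the log2 fold of 0.24 ± 0.19 (edgeR adjusted p = 0.584) has a standard error over 4 times that of the other members.

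In ER-bound RNA, then, 0 of the 5 other members were called, where 4.01% of all genes were, so that few or none of 5 would be called at that share. At an unadjusted p under 0.05 there were 0 of the 5 and 3047 of all 17702 genes. In whole-cell RNA edgeR called 0 of 17702 genes (0%), so a count of 0 of the 5 members there says nothing particular of them. At an unadjusted p under 0.05 there were 731 genes, DESeq2 called 5 and limma-voom 0. Nme3 had 21, 29 and 27 whole-cell reads after Lsg1 siRNA, against 14, 21 and 18 reads after scramble siRNA. Scaled for depth its whole-cell groups did not overlap (0.525 to 0.636 CPM after Lsg1 siRNA, against 0.374 to 0.473 CPM after scramble siRNA), but the log2 fold of 0.45 ± 0.22 was not called (edgeR adjusted p = 1.00). Mrps34, with which Nme3 shares most of its exons, had whole-cell means of 47.3 ± 3.37 CPM after Lsg1 siRNA and 45.8 ± 1.92 CPM after scramble siRNA (SD, n = 3 each).

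**Figure D2:**
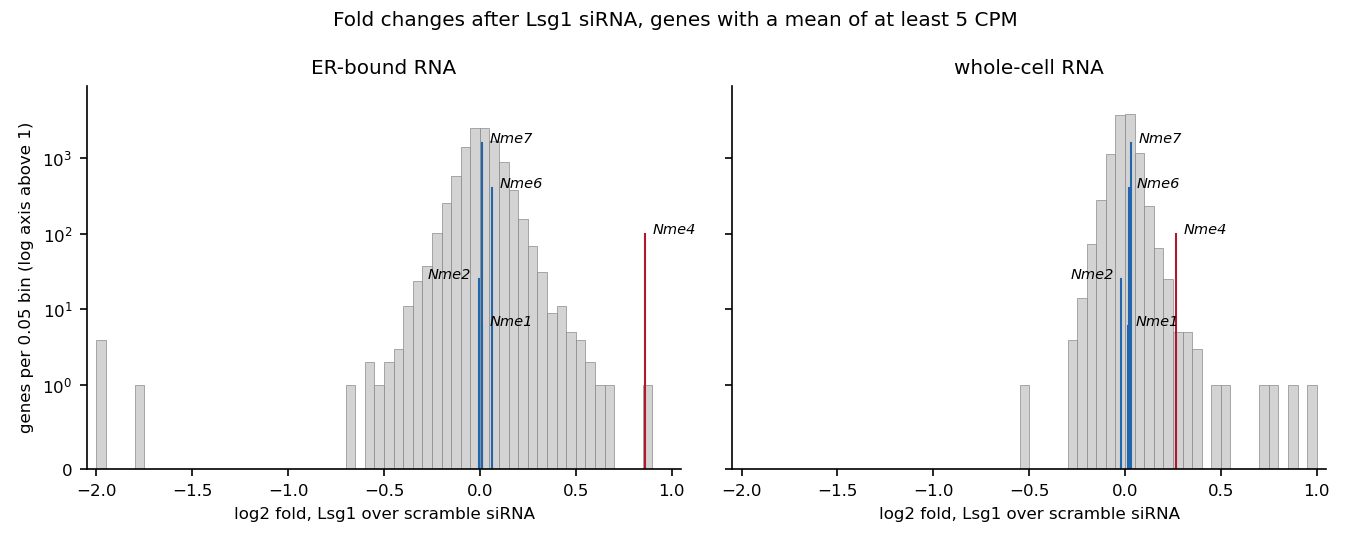
Number of genes (y axis, logarithmic above 1) by log2 fold of Lsg1 over scramble siRNA (x axis, bins of 0.05) for the 10645 genes averaging 5 CPM or more, in ER-bound RNA (left) and whole-cell RNA (right). Genes beyond the axis are counted in its end bins, coloured lines mark Nme genes, and line heights carry no value. Nme4 is at 0.86 on the left and 0.27 on the right, and Nme1, Nme2, Nme6 and Nme7 lie between -0.02 and 0.06 on both.

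The difference between the fractions' siRNA responses was tested for the 5 other members and 0 were called. As background, edgeR called 4 of 17702 genes in that test (0.0226%), Lsg1, Lage3, Vamp3 and Nme4, whose place there follows from its choice and is no finding, with 1219 genes at an unadjusted p under 0.05 and 18 called by DESeq2. The members' log2 values were -0.01 ± 0.05 for Nme1, 0.01 ± 0.05 for Nme2, -0.20 ± 0.29 for Nme3, 0.04 ± 0.06 for Nme6 and -0.02 ± 0.06 for Nme7 (SE), beside the 0.59 ± 0.06 for which Nme4 was chosen. Leaving out replicate 1 of the ER-bound scramble group raised the number of genes called to 8, and 0 of the 5 members were called under any of the alternatives run.

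Because Nme4 was higher and the others were close to level, the makeup of the family's RNA differed. Nme4 made up 22.1% ± 0.418 of the members' summed CPM in ER-bound RNA after Lsg1 siRNA and 13.6% ± 0.638 after scramble siRNA (SD, n = 3 each). In whole-cell RNA its share was 16.8% ± 0.111 after Lsg1 siRNA and 14.5% ± 0.514 after scramble siRNA (SD, n = 3 each). The ER-bound sum of the 6 members was 439 to 445 CPM after Lsg1 siRNA and 387 to 407 CPM after scramble siRNA. These shares follow from the level by which Nme4 was chosen and carry no test.

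Levels of different genes can be compared only per length. Per kilobase of transcript, Nme2 was highest and Nme4 next in every group. In ER-bound RNA after Lsg1 siRNA, Nme2 was at 107 ± 3.52 and Nme4 at 97.1 ± 2.40 CPM per kb. In ER-bound scramble RNA, Nme2 was at 108 ± 1.91 and Nme4 at 53.5 ± 3.95 CPM per kb (SD, n = 3 each). The lowest Nme2 library of the knockdown group, at 103 CPM per kb, was still above the highest Nme4 library, at 99.2 CPM per kb. The distance between these genes is uncertain, because only 439 of the 1012 bases of the Nme2 transcript lay outside other genes of its strand. For Nme1 these were 2763 of 3181 bases, and for Nme4 all 1006. How reads in the shared bases were counted is not known, and reads left out there would lower the Nme2 level per kb.

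Nme1 followed at 47.0 ± 1.39 CPM per kb after Lsg1 siRNA and 46.8 ± 1.27 after scramble siRNA in ER-bound RNA. Nme6 was at 39.6 ± 1.53 and 37.9 ± 0.379 CPM per kb in the same groups, and Nme7 at 24.1 ± 0.634 and 23.8 ± 0.994 CPM per kb. The whole-cell order was the same, with scramble means of 91.8, 50.6, 42.8, 31.5 and 21.7 CPM per kb for Nme2, Nme4, Nme1, Nme6 and Nme7. Within each group no 2 genes next to each other in this order had overlapping libraries. The place of Nme1 depends on the 3181-base transcript used as its length. With all annotated exonic bases in place of one transcript, Nme1 (44.5 CPM per kb) came above Nme4 (34.0 CPM per kb) in ER-bound scramble RNA. It also did so in whole-cell RNA, at 41.2 against 38.7 CPM per kb after Lsg1 siRNA and 40.7 against 32.2 after scramble siRNA. In ER-bound RNA after Lsg1 siRNA, Nme1 (44.8 CPM per kb) stayed below Nme4 (61.7 CPM per kb). No level per kb is given for Nme3, whose exons are mostly shared with Mrps34.

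The ER-bound level of each mRNA was set against its whole-cell level in the same lysate. This ratio of CPM is relative and is not the share of the mRNA's molecules that was ER-bound. In scramble cells the Nme4 ratios were 1.15, 0.980 and 1.04, on both sides of 1. Its ER-bound libraries (50.4 to 58.2 CPM) overlapped its whole-cell libraries (50.4 to 51.5 CPM), with a log2 fold of 0.08 ± 0.04. In Lsg1 siRNA cells the ratios were 1.66, 1.56 and 1.56, all above every scramble ratio, a log2 fold of 0.67 ± 0.04. Both folds enter the difference for which the gene was chosen and are given without a test.

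**Figure D3:**
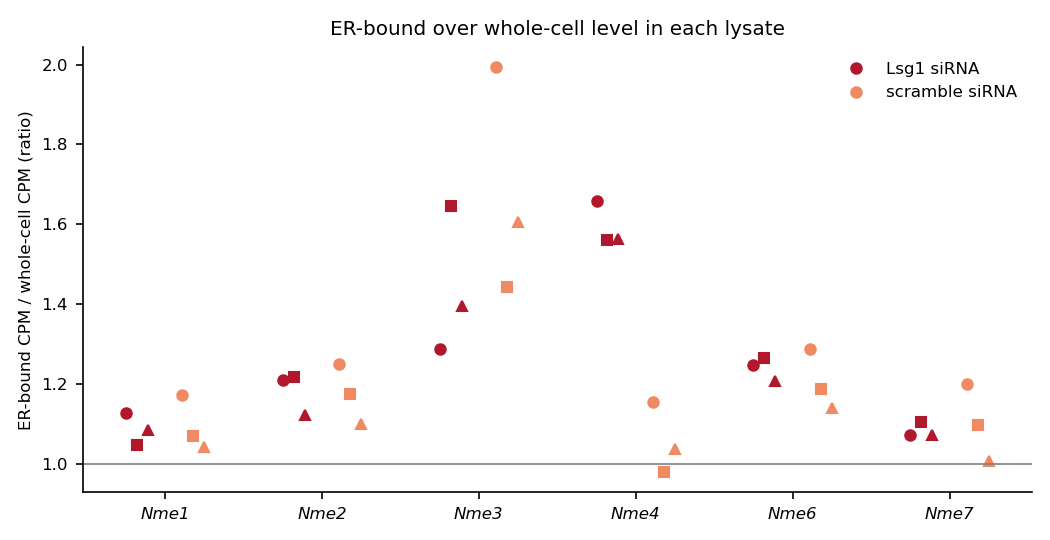
Ratio of ER-bound to whole-cell CPM (y axis) in each of the 6 lysates for each Nme gene (x axis), with Lsg1 siRNA in dark red and scramble siRNA in orange. Circles, squares and triangles are replicates 1, 2 and 3, and the grey line marks equal levels. The Nme4 ratios are 1.56 to 1.66 after Lsg1 siRNA and 0.980 to 1.15 after scramble siRNA, while the ranges of the other genes overlap between the siRNAs.

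The other 5 members were called higher in ER-bound than in whole-cell RNA of scramble cells, where 58.9% of all genes were called, 29.8% higher and 29.1% lower. In numbers these were 5279 higher and 5143 lower, and with library totals in place of TMM 6438 higher and 4145 lower. Nme2 was at 111, 108 and 107 CPM in ER-bound and 88.8, 92.1 and 97.6 CPM in whole-cell RNA, separate groups with a log2 fold of 0.23 ± 0.04 (edgeR adjusted p = 3.0e-05). Nme6 was at 41.1, 40.7 and 40.3 CPM in ER-bound and 31.9, 34.3 and 35.3 CPM in whole-cell RNA, also separate, with a log2 fold of 0.26 ± 0.04 (edgeR adjusted p = 2.7e-05). These were the clearest of the 5, and both were higher in all 3 lysates.

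Nme1 was at 153, 145 and 148 CPM in ER-bound and 131, 135 and 142 CPM in whole-cell RNA of scramble cells, with a log2 fold of 0.13 ± 0.04 (edgeR adjusted p = 0.0069). Nme7 was at 42.8, 42.0 and 39.5 CPM in ER-bound and 35.7, 38.3 and 39.3 CPM in whole-cell RNA, with a log2 fold of 0.14 ± 0.04 (edgeR adjusted p = 0.011). Both were higher in 3 of 3 lysates, with Nme7 in replicate 3 at only 1.01 times its whole-cell level. Leaving out replicate 1 of the whole-cell scramble group ended the calls of Nme1 (log2 fold 0.08) and Nme7 (log2 fold 0.08), and leaving out replicate 1 or 2 of the ER-bound scramble group ended that of Nme7. Nme3 had 37, 34 and 29 reads in ER-bound and 14, 21 and 18 reads in whole-cell RNA, with a log2 fold of 0.73 ± 0.21 (edgeR adjusted p = 0.0070).

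In Lsg1 siRNA cells the same 5 genes were again higher in ER-bound RNA, against 60.3% of all genes called in either direction, 5412 higher and 5271 lower with TMM and 6685 higher and 4142 lower with library totals. Nme2 was at 110, 111 and 104 CPM in ER-bound and 91.0, 91.1 and 93.0 CPM in whole-cell RNA, a log2 fold of 0.24 ± 0.04 (edgeR adjusted p = 1.6e-05). Nme6 was at 41.3, 44.4 and 41.8 CPM in ER-bound and 33.2, 35.1 and 34.7 CPM in whole-cell RNA, a log2 fold of 0.31 ± 0.04 (edgeR adjusted p = 4.3e-06). The folds of Nme1 (0.12 ± 0.04), Nme3 (0.52 ± 0.20) and Nme7 (0.12 ± 0.04) had edgeR adjusted p-values of 0.011, 0.028 and 0.026. These 3 calls were fragile. Nme1 lost its call (log2 folds 0.07 to 0.11) without replicate 2 or 3 of the ER-bound scramble group, replicate 3 of the ER-bound Lsg1 group, or replicate 1 or 2 of the whole-cell Lsg1 group. Nme3 lost it (0.42 to 0.47) without replicate 2 or 3 of the ER-bound Lsg1 group or replicate 1 or 2 of the whole-cell Lsg1 group. Nme7 lost it (0.09 to 0.11) without any one of 11 libraries, all but replicate 1 of the ER-bound scramble group.

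These fraction differences were small and depended on the treatment of base composition and length. When the trends of level with GC and with length were taken out of each library, 0 of these 5 members were called in either kind of cell. In scramble cells the log2 folds became 0.02 for Nme1, -0.04 for Nme2, 0.49 for Nme3, 0.004 for Nme6 and 0.02 for Nme7, and in Lsg1 siRNA cells they became 0.001, -0.02, 0.30, 0.06 and -0.01. Nme4 became lower in ER-bound RNA of scramble cells (-0.20) and stood at 0.40 in Lsg1 siRNA cells. With library totals in place of TMM, Nme4 in scramble cells was instead higher (0.16), where the median of all genes was at 0.11. The direction of Nme4 between the fractions of scramble cells was therefore not settled by these data. Its siRNA fold in ER-bound RNA stayed between 0.80 and 0.91 across all alternatives run.

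**Figure D4:**
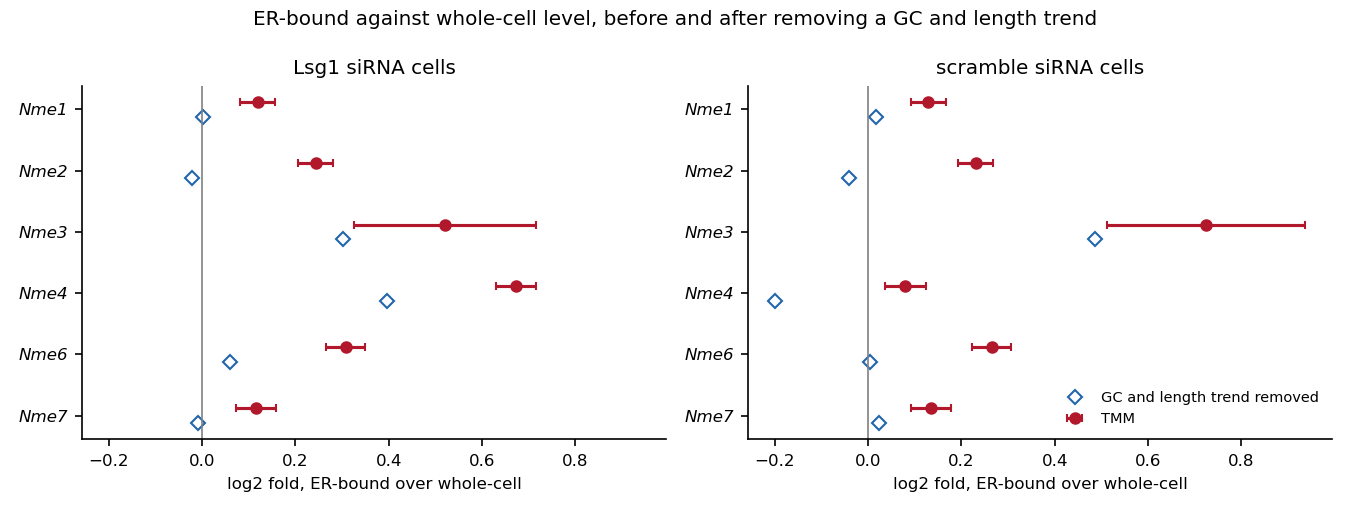
Log2 fold of ER-bound over whole-cell level (x axes) for each Nme gene in Lsg1 siRNA cells (left) and scramble siRNA cells (right). Red circles are the TMM-scaled estimates with bars of 1 SE, and open blue diamonds the estimates after a GC and length trend was removed. Except for Nme3 and for Nme4 in Lsg1 siRNA cells, the diamonds lie between -0.20 and 0.06.

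Nme1 and Nme2, whose products share hexamers, were also compared through their ratio of counts. It was 1.38 ± 0.0849 in ER-bound RNA after Lsg1 siRNA and 1.36 ± 0.0238 after scramble siRNA, and in whole-cell RNA 1.50 ± 0.0357 after Lsg1 siRNA and 1.47 ± 0.00657 after scramble siRNA (SD, n = 3 each). The siRNA groups differed by less than the larger SD in ER-bound RNA and by about as much as the larger SD in whole-cell RNA. The ratio is of counts and not of molecules, since the genes differ in length.

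The 5 genes whose level followed Nme4 most closely over the 12 libraries, by Pearson's r of log2 CPM among 10644 other genes averaging 5 CPM or more, were Rac1 (r = 0.976), Rap2b (0.933), Dnajc8 (0.927), Plxnb2 (0.926) and Snapin (0.924). The 12 libraries share 6 lysates, and the r is a description. Rac1 averaged 251 ± 2.99 CPM in ER-bound RNA after Lsg1 siRNA and 215 ± 4.08 CPM after scramble siRNA (SD, n = 3 each), with 224 ± 4.33 and 217 ± 5.31 CPM in whole-cell RNA of the same cells. Rap2b, a Ras-related GTPase, averaged 42.3 ± 2.34 CPM in ER-bound RNA after Lsg1 siRNA and 30.9 ± 1.07 CPM after scramble siRNA, with 30.5 ± 1.15 and 26.5 ± 1.22 CPM in whole-cell RNA. In each of them the ER-bound knockdown libraries were the highest, with smaller differences than for Nme4. The other members followed Nme4 less closely, with r of 0.710 for Nme3, 0.608 for Nme6, 0.518 for Nme1, 0.508 for Nme7 and 0.463 for Nme2.

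Around the Nme enzymes stand those that make and recycle their substrates, and the genes of mitochondrial membranes, where the protein of Nme4 acts. Of 61 genes in 6 such lists, all tested, 6 were called in ER-bound RNA after Lsg1 siRNA (9.84%, against 4.01% of all genes), 4 higher and 2 lower, with a median log2 fold of -0.0007 over the 61 and 0.009 over all genes. Prps2, which makes the ribose donor of purine synthesis, was at 84.8, 86.4 and 83.0 CPM after Lsg1 siRNA, against 73.7, 73.5 and 70.6 CPM after scramble siRNA, a log2 fold of 0.22 ± 0.03 (edgeR adjusted p = 0.0013). The groups were well apart, and it was 1 of 13 purine synthesis genes called.

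In the list of mitochondrial fusion, fission and cardiolipin genes 2 of 10 were called, Taz and Pgs1. Taz (tafazzin), which remodels the acyl chains of cardiolipin, averaged 22.6 ± 0.748 CPM after Lsg1 siRNA and 19.3 ± 0.329 CPM after scramble siRNA, a log2 fold of 0.22 ± 0.05 (edgeR adjusted p = 0.012). Pgs1, which acts early in cardiolipin synthesis, averaged 77.2 ± 0.575 and 69.8 ± 1.70 CPM in the same groups, a log2 fold of 0.15 ± 0.03 (edgeR adjusted p = 0.016). The list's other cardiolipin genes were not called, with log2 folds of 0.09 ± 0.05 for Ptpmt1, 0.06 ± 0.04 for Crls1, -0.04 ± 0.04 for Tamm41 and -0.04 ± 0.07 for Plscr3. Rrm2, the small subunit of ribonucleotide reductase, was 1 of 8 dNTP genes called, at 0.12 ± 0.02.

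Among the lower genes was Ctps, which makes CTP, at -0.13 ± 0.03 (1 of 5 pyrimidine synthesis genes). Of 12 salvage genes 0 were called by edgeR or DESeq2, and 4 had an unadjusted p under 0.05, as had 3047 of all 17702 genes. Most of these calls were close to the threshold. The 61 genes held 1 call without replicate 2 of the ER-bound Lsg1 group, and 2 calls without replicate 1 or 3 of that group or without replicate 2 or 3 of the ER-bound scramble group. Where a call was lost with a library left out, the log2 folds were 0.19 to 0.21 for Taz, 0.12 to 0.14 for Pgs1, 0.11 to 0.12 for Rrm2 and -0.15 to -0.12 for Ctps. Of these and Prps2, Prps2 alone kept its call under every alternative run. In whole-cell RNA, and in the test of the difference between fractions, edgeR and DESeq2 called 0 of the 61, and 2 and 5 of them had an unadjusted edgeR p under 0.05.

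**Figure D5:**
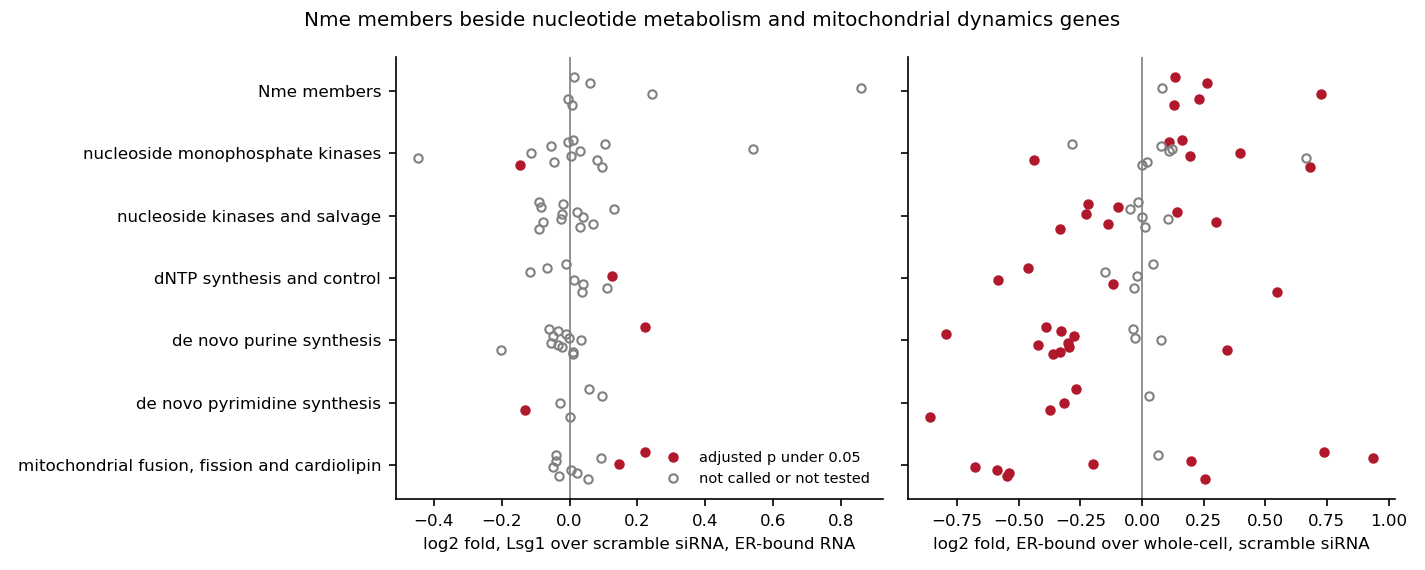
Log2 fold of each gene (points, spread vertically for legibility) in the Nme family and 6 related lists, for Lsg1 over scramble siRNA in ER-bound RNA (left) and for ER-bound over whole-cell RNA in scramble cells (right). Filled points have an edgeR adjusted p under 0.05, and Nme4, for which no test is given, is open, at 0.86 on the left and 0.08 on the right. On the right most purine and pyrimidine synthesis genes are below 0, while the 5 Nme genes other than Nme4 are filled and above 0.

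Between fractions the lists went in different directions. In scramble cells 40 of the 61 genes were called (65.6%, against 58.9% of all genes). In ER-bound RNA 13 were higher (21.3%, against 29.8% of all genes) and 27 lower (44.3%, against 29.1%). Under the alternatives other than leaving out a library, 38 to 44 were called. Of 13 purine synthesis genes 9 were lower and 1 higher, with a median log2 fold of -0.30, led by Pfas (-0.80 ± 0.04) and Gart (-0.42 ± 0.03), enzymes of the middle steps of the pathway. Of 5 pyrimidine synthesis genes 4 were lower, with a median of -0.32, led by Cad, the multifunctional enzyme that starts the pathway. Cad averaged 265 ± 21.5 CPM in ER-bound and 481 ± 10.1 CPM in whole-cell RNA (SD, n = 3 each), a log2 fold of -0.86 ± 0.05 (edgeR adjusted p = 2.5e-11).

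The nucleoside monophosphate kinases, which supply diphosphates to the Nme enzymes, had 5 of 13 genes higher and 1 lower, with a median of 0.11. Over all genes 29.8% were called higher and 29.1% lower. Whether the counts of any list differ from those shares was not tested. Ak1, the main cytosolic adenylate kinase, was higher at 0.68 ± 0.03 and Ak4, a mitochondrial one, lower at -0.44 ± 0.03. Salvage genes had 2 higher and 5 lower of 12, with Dguok, the mitochondrial deoxyguanosine kinase, at 0.30 ± 0.05 and Adk, the adenosine kinase, at -0.33 ± 0.04. The call of Adk did not survive removal of the GC and length trend, where its fold was 0.07. Of 8 dNTP genes 1 was higher, Dctd, the dCMP deaminase, at 0.55 ± 0.03, and 3 were lower, among them Rrm1, the large subunit of ribonucleotide reductase, at -0.58 ± 0.03.

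Mitochondrial membrane genes went both ways, 4 higher and 5 lower of 10, where 29.8% of all genes were higher and 29.1% lower. Ptpmt1, a phosphatase of cardiolipin synthesis, averaged 44.8 ± 3.19 CPM in ER-bound and 23.4 ± 1.39 CPM in whole-cell RNA of scramble cells, a log2 fold of 0.94 ± 0.05 (edgeR adjusted p = 3.7e-11). Opa1, the GTPase of inner membrane fusion, averaged 71.6 ± 0.854 CPM in ER-bound and 115 ± 4.18 CPM in whole-cell RNA, a log2 fold of -0.68 ± 0.04 (edgeR adjusted p = 2.1e-11). In Lsg1 siRNA cells 42 of the 61 were called (68.9%, against 60.3% of all genes). Of the 61, 12 were higher (19.7%, against 30.6% of all genes) and 30 lower (49.2%, against 29.8%). They included Cad at -0.87 ± 0.05, Pfas at -0.80 ± 0.04, Opa1 at -0.70 ± 0.04, Ak1 at 0.66 ± 0.03 and Ptpmt1 at 1.01 ± 0.05. Of these, Cad, Pfas, Opa1, Ak1 and Ptpmt1 kept their direction and call after the GC and length trend was removed, in both kinds of cell.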

How the data were processed

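The submitters' processing notes name the GRCm39 build, the aligner STAR 2.7.9a, the read counter HTSeq 0.11.2 and DESeq2 without a version for the 12 libraries. The authors deposited raw counts for 55416 gene IDs, with 5 summary lines that were left out of library sizes and tests. Reads in no feature came to 2.65% to 5.26% of each library, those aligned to several places to 6.09% to 8.23%, and ambiguous reads to 0.97% to 1.16%. Neither the strand setting nor the annotation release is given in the sources used here. Names were matched by gene ID to a GENCODE annotation on the older GRCm38 assembly, which also gave positions, transcripts, sequences, GC content and lengths (52135 IDs, 94.1%).

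After filterByExpr left 17702 genes and TMM scaled them, the 4 groups were fitted together with edgeR 4.0.16 in R 4.3.3. The quasi-likelihood test had 8 residual degrees of freedom, and the coefficient of variation was 4.42%. Log2 CPM, used for the correlations and the GC and length trend, had a prior count of 2. A gene was called at a Benjamini-Hochberg adjusted p under 0.05 over all tested genes, and ± after a fold is its standard error. That error was derived from the test, as the absolute log2 fold over the square root of the quasi-likelihood F statistic. Alternatives were other scalings, no and stricter filters, DESeq2 1.42.0, limma-voom 3.58.1, a replicate block, a GC and length offset, fits on the compared groups alone, and each library left out. Sequences were read with Python 3.11.15 and aligned with Biopython 1.88, and figures drawn with matplotlib 3.10.9.

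The labels name biological replicates but not what separated them. The fractions are paired through shared lysates, per the series' design text. Deviations of same-numbered libraries from their group means were correlated over genes with a mean of at least 5 CPM. Between the siRNAs, r was 0.376, 0.126 and 0.322 in ER-bound RNA and 0.278, -0.00993 and 0.313 in whole-cell RNA. Between the fractions, r was 0.16, -0.0308 and 0.256 in scramble cells and 0.277, 0.0158 and 0.281 in Lsg1 siRNA cells. Replicate 2 thus showed little or no shared deviation between its fractions. Members and lists were chosen with earlier results of these data known. Named were every member in each comparison, Lsg1, genes overlapping a member, up to 2 called genes of smallest p per list and comparison, and the 5 genes most like Nme4, except 1 list gene that is not reported here. No 2 libraries held identical counts.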

Additional observations from a re-analysis of the deposited data

How the results depend on the processing

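Each result was recomputed under 22 alternatives, 12 of which left out 1 library. Among members other than Nme4, 0 were called for siRNA or for the difference between fractions under any of them. The replicate block moved the number of genes called for siRNA to 1463 in ER-bound RNA, 8 in whole-cell RNA and 10 for the difference between fractions, and changed no member's call. For siRNA in ER-bound RNA, the fit on the compared groups alone called 375, and leaving out single libraries gave 290 to 854, the lowest without replicate 2 of the ER-bound Lsg1 group. In whole-cell RNA 26 genes were called without a filter, 5 by DESeq2, 1 with the GC and length offset, 2 in the fit on the compared groups, 4 without both replicate 3 libraries that had the most reads outside features, and 0 to 3 without single libraries. For the difference between fractions 59 were called without a filter, 18 by DESeq2, and 3 to 8 without single libraries.

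Members past the threshold between fractions of scramble cells numbered 3 to 5 without single libraries. With the GC and length offset 0 of the 5 members other than Nme4 were called, and Nme4 was at -0.20, a value given as a description without a test. There Nme2 was at -0.0417 and Adk at 0.0654. In Lsg1 siRNA cells, members called other than Nme4 numbered 3 without a filter, 3 by DESeq2, 0 with the offset and 2 to 5 without single libraries. The offset put Nme2 at -0.0226, Nme7 at -0.00917 and Nme4 at 0.396, and library totals put Nme4 at 0.761. The ER-bound siRNA fold of Nme4 was 0.801 to 0.912 without single libraries, the lowest without replicate 2 of the scramble group.

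Folds near 0 that were called nowhere changed sign. For siRNA in ER-bound RNA, Nme1 was at -0.0101 without a filter, -0.00979 with the offset, -0.00276 in the fit on the compared groups and -0.00789 without both replicate 3 libraries, and Nme7 at -0.00615, -0.00949 and -0.0351 without a filter, with the offset and without those libraries. Without single libraries Nme1 ranged over -0.027 to 0.0218, Nme2 over -0.0306 to 0.00635 and Nme7 over -0.035 to 0.0293. In whole-cell RNA Nme1 was at -0.00747 without those libraries, and single libraries gave -0.0182 to 0.0563 for Nme1, -0.056 to 0.0243 for Nme2, -0.0275 to 0.056 for Nme6 and -0.0123 to 0.0669 for Nme7. For the difference between fractions, Nme1 was at 0.00155 with library totals and Nme2 at -0.00589 without a filter, and single libraries gave -0.0603 to 0.0141 for Nme1, -0.0428 to 0.0374 for Nme2, -0.0069 to 0.0765 for Nme6 and -0.0669 to 0.0122 for Nme7. The causes were not tested. Depth limits Nme3, at 14 to 38 reads per library.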
